A study of Mus musculus with 12 samples.

Results

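The comparison described here is that of LPS-treated with untreated BV-2 microglia, and it covers 6 of the 12 arrays of the series. BV-2 cells are a mouse microglial line immortalized with an oncogene, and lipopolysaccharide (LPS) is the outer membrane glycolipid of Gram-negative bacteria. The 3 control arrays came from untreated cultures and the 3 LPS arrays from cultures that received 50 ng/ml LPS, all at 24 h. The other 6 arrays, of cultures with 50 µM luteolin or with luteolin + LPS, entered the estimate of the spread between arrays. They also entered the choice of each gene's probe set and the minimum signal given next. The members were chosen by their sample labels, and the description runs over 12071 genes, those whose mean signal reached 50 in any of the 4 conditions. The study describes its cultures as coming from 3 independent stimulation experiments, without tying the replicate numbers to them. The median signal over all probe sets was 52.2 to 56.0 in the 6 arrays. The labels name BV-2 in the treatment and PUER in the extraction text, and the cells were taken as BV-2. All 16 markers of macrophage and microglial identity tested, among them Ptprc, Itgam, Csf1r and Spi1, passed this minimum. The defining markers of adult brain microglia were low in this line, with P2ry12 at 25.3 to 112, Tmem119 at 39.4 to 79.6 and Cx3cr1 at 36.0 to 60.0 over the 6 arrays, and Sall1 and Siglech below the minimum. In cultures of this kind a lower signal can mean fewer cells that express a gene or less RNA per cell, which cannot be told apart.

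LPS is bound by CD14 and passed to the complex of Toll-like receptor 4 (TLR4) with MD-2, which is encoded by Ly96. The adaptor MyD88 then leads to NFkB and to the MAP kinases and AP-1, and the adaptor TRIF (Ticam1) leads to IRF3, to interferon beta and, through the interferon receptor, to the interferon-stimulated genes. NFkB also switches on its own inhibitors, which limit the response. In macrophages and microglia the combined output is known for cytokines, chemokines, acute phase proteins and enzymes that make nitric oxide, itaconate and prostaglandins.

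The promoters of 5 genes that rose are shown because they carry matches to the binding motifs of the factors just named. Each window runs from 250 bases before to 50 bases after the start of the gene, 5′ to 3′ on the gene's strand, from RefSeq on GRCm38.p6. Capitals mark matches to an NFkB motif (GGGANTTNC), an interferon-stimulated response element or ISRE (GAAANNGAA) and an AP-1 motif (TGANTCA), read on both strands. The windows lie at chr5:30012864-30013163, plus strand (Il6), chr5:92348840-92349139, minus strand (Cxcl10), chr12:55492598-55492897, minus strand (Nfkbia), chr12:26456403-26456702, minus strand (Rsad2) and chr19:34640639-34640938, plus strand (Ifit1).
Il6: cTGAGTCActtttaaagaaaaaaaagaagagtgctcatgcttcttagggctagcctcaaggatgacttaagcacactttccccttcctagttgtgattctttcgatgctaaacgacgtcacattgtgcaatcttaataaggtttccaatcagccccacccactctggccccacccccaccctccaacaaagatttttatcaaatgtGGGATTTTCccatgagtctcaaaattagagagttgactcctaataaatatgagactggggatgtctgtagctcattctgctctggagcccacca
Cxcl10: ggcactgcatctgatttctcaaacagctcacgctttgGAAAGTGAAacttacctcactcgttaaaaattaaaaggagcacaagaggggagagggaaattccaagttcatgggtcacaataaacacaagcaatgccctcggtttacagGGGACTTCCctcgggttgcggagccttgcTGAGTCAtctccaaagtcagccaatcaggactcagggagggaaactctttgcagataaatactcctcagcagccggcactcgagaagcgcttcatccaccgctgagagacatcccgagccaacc
Nfkbia: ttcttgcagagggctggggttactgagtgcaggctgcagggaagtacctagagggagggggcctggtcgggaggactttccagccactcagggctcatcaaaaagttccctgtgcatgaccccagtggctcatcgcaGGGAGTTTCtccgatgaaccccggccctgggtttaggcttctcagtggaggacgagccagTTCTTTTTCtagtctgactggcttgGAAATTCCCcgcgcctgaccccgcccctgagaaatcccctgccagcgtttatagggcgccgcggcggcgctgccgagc
Rsad2: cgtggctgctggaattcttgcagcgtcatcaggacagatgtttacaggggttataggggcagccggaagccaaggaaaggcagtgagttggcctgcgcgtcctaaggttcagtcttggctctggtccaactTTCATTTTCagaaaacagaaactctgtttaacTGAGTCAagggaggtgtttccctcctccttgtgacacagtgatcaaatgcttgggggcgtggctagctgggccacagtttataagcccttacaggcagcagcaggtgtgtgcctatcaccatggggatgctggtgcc
Ifit1: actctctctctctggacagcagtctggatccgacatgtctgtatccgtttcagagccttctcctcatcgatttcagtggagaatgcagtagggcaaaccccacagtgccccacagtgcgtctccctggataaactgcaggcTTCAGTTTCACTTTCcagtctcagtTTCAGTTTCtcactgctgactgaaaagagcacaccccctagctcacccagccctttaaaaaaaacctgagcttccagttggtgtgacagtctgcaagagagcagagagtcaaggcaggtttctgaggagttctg
The Il6 window held an NFkB match that began 44 bases before the start and an AP-1 match 249 bases before it. In the Cxcl10 window all 3 motifs occurred, the ISRE 213, the NFkB motif 103 and the AP-1 motif 74 bases upstream. Nfkbia held NFkB matches 113 and 28 bases upstream and an ISRE match 53 bases upstream. The windows of the antiviral genes Rsad2 and Ifit1 held no NFkB match and held ISRE matches, Rsad2 at 119 bases (with an AP-1 match 87 bases upstream) and Ifit1 at 109, 103 and 84 bases upstream, of which the first pair overlap.

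After 24 h of LPS, 1338 of 12071 genes (11.1%) were called, that is, had an adjusted p below 0.05 in a limma fit that held the replicate number as its block. Of these 519 rose (4.3%) and 819 fell (6.78%). The rises were larger than the falls. The median log2 fold change of LPS minus control was 0.99 among the genes that rose and -0.64 among those that fell, beside -0.04 over all genes. The shares of 4.3% and 6.78% are the background for the gene lists below. Of 976 measured list genes 849 passed the minimum, some of them only through arrays other than the controls. Such genes had to have a higher mean in some other condition than in the controls, which was LPS, luteolin or luteolin + LPS. Those that passed through LPS had to be higher there, and 46 of all genes that rose had all controls under 50. A change of more than 1 on the log2 scale was reached by 259 of the genes that rose and 134 of those that fell, and one of more than 4 by 29 and 0. All 1338 had the same sign in each of the 3 replicates. A call based on those same differences makes this likely, so it is no separate support. The 3 LPS arrays lay entirely above the 3 controls in 465 of the 519 and entirely below them in 701 of the 819. Over all genes 1386 (11.5%) and 1941 (16.1%) did so.

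**Figure D1:**
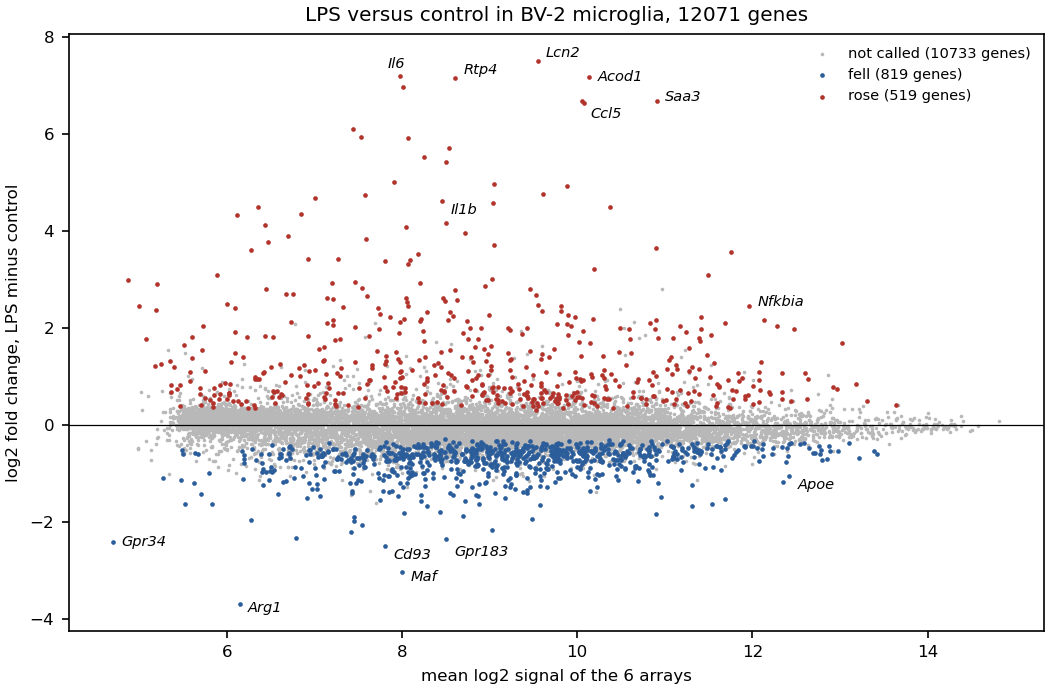
Each point is 1 of 12071 genes, with the mean log2 signal of the 6 arrays on the x axis and the log2 fold change of LPS minus control on the y axis. Genes that rose (519, red) reach 7.50, genes that fell (819, blue) reach -3.69, and 14 genes lie above 5.

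The calls differed in how far they rested on the block and on single arrays. Without the block 237 genes rose (1.96%) and 268 fell (2.22%), all of them within the calls with the block. With the block and only the 6 control and LPS arrays, 297 rose (2.46%) and 195 fell (1.62%), and these held 50.7% of the rises and 22.7% of the falls of the larger fit. Leaving out control replicate 3 left 188 rises and 176 falls, LPS replicate 3 left 278 and 283, and control replicate 1 left 291 and 312. Without control replicate 2 there were 357 rises and 452 falls, without LPS replicate 1 374 and 461, and without LPS replicate 2 333 and 598. With all 4 arrays of replicate 1 left out, 312 genes rose and 328 fell, and with those of replicate 3 left out, 90 and 20. Below, the strength of a call is given as the number of 27 other settings, described in the closing section, in which the gene was called. Genes with a mean signal under 100 in every condition have 26 such settings. The lists of calls lost with a single array left out cover only the genes chosen by the rule in the closing section. Other list members were followed through the counts and may have lost their calls as well.

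Replicate 1 stood apart. Its difference between the LPS and the control array exceeded 1 in 460 genes and fell below -1 in 994, against 273 and 94 genes in replicate 2 and 346 and 168 in replicate 3. Of the 460 genes above 1 in replicate 1, 210 were above 1 in both other replicates. Of the 994 genes below -1, only 50 were so in both others, while 197 were above 0 in both. LPS replicate 1 correlated with the other 5 arrays at 0.970 to 0.983 over all genes, and the remaining pairs at 0.976 to 0.997. Of the genes that rose, 324 had their largest difference in replicate 1, 54 in replicate 2 and 141 in replicate 3. For the falls these numbers were 531, 41 and 247.

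The strongest rises belonged to an acute phase protein, a cytokine, an itaconate-making enzyme and antiviral genes. Lcn2 (lipocalin 2), which binds bacterial siderophores and so withholds iron, gave signals of 23.5, 128 and 57.3 in control replicates 1, 2 and 3 and 7377, 12329 and 11277 in the LPS arrays. All 3 LPS arrays lay far above the controls, and the spread lay mainly among the controls, where replicate 1 was below the minimum of 50. The log2 fold change was 7.50 ± 0.94 (SE, n = 3, adjusted p = 0.00205), called in 27 of the 27 settings. Il6, encoding the cytokine interleukin 6, lay at 10.9, 25.4 and 32.9 in the controls and 5018, 1836 and 3041 with LPS. Its controls all lay under the minimum of 50, so the rise was at least 60.7-fold with each control set to 50, and the fitted log2 fold change was 7.18 ± 0.52 (SE, n = 3, adjusted p = 0.000171). Acod1 makes itaconate, an antimicrobial metabolite drawn from the citric acid cycle, and went from 56.2, 128 and 116 to 16153, 12160 and 12497. The groups were far apart in every replicate, with a log2 fold change of 7.16 ± 0.50 (SE, n = 3, adjusted p = 0.00014). Saa3, an acute phase apolipoprotein, was at 106, 358 and 181 in the controls and 17731, 19385 and 21274 after LPS, a log2 fold change of 6.67 ± 0.62 (SE, n = 3, adjusted p = 0.000521). The chemokine Ccl5 read 113, 67.1 and 154 in the controls and 19969, 6849 and 8924 with LPS, a 102-fold difference that was called in 27 of the 27 settings (log2 fold change 6.67 ± 0.50 SE, n = 3, adjusted p = 0.000171). LPS replicate 1 was the highest array for Ccl5, Il6 and Acod1 and the lowest of the LPS arrays for Lcn2 and Saa3.

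Rtp4, a chaperone of receptors that interferon induces, rose from 25.9, 24.4 and 55.2 to 5564, 2844 and 6238 (log2 fold change 7.14 ± 1.12 SE, n = 3, adjusted p = 0.00558), and by 4.53 when the mean of its probe sets was taken. Gbp2 and Gbp3, guanylate-binding proteins that attack the vacuoles of intracellular microbes, rose by 6.95 ± 1.0 and 5.51 ± 0.72 on the log2 scale. The Gbp2 controls read 14.8, 28.3 and 29.8, all under 50, which leaves a rise of at least 57.5-fold. The Gbp2 signal in LPS replicate 1 was 8529 and those in replicates 2 and 3 were 1529 and 1826, and its probe set may also bind related Gbp transcripts. AA467197, a small transcript induced by inflammatory stimuli, rose from 51.5, 55 and 27 to 1063, 1218 and 1926 (log2 fold change 5.0 ± 0.61 SE, n = 3, adjusted p = 0.00191), and here replicate 3 was the highest. Its locus at chr2:122637887-122641076 (GRCm38.p6) also holds a microRNA, shown because it lies within the locus of a gene that rose. Only the mature sequence of its 5p arm is given, with the seed of that arm (bases 2 to 8) in capitals. The arrays did not measure the microRNA.
mmu-miR-147-5p: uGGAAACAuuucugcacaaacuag

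**Figure D2:**
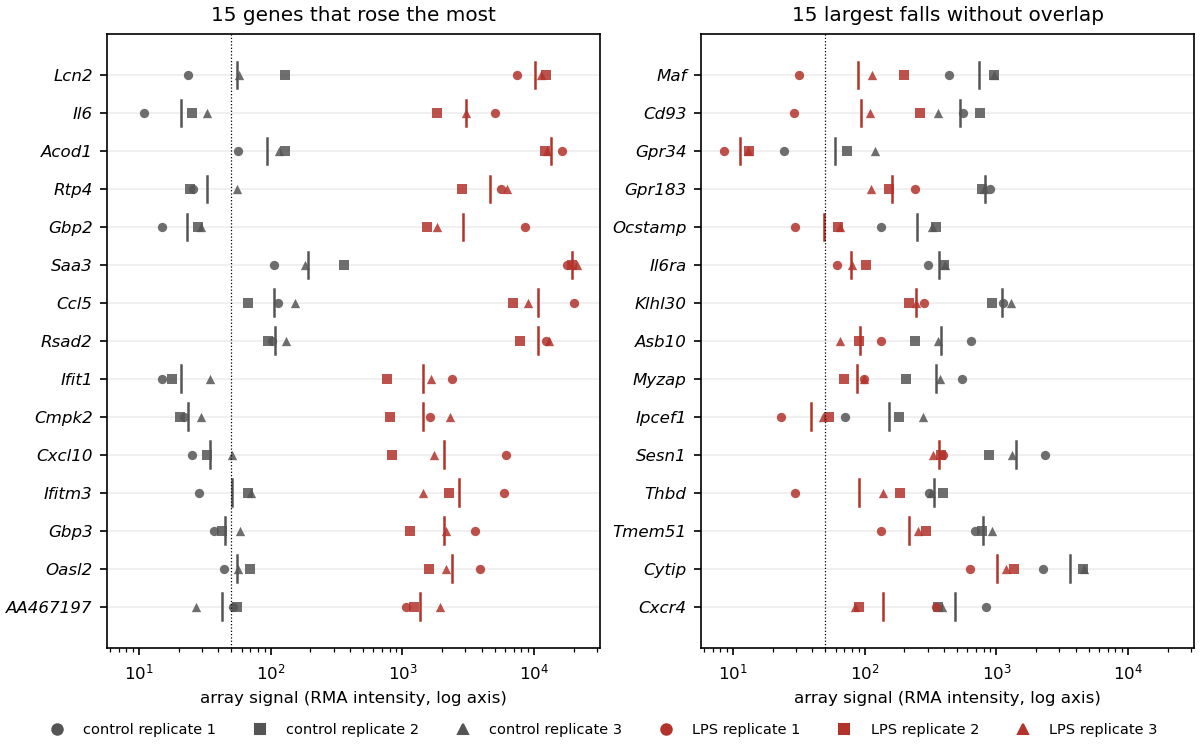
Array signals on a log axis for the 15 genes that rose the most (left) and the 15 that fell the most with no overlap between groups (right), with controls in grey, LPS in red, a symbol for each replicate, bars at geometric means of 3 arrays and a dotted line at 50. The ratio of the group means is at least the 32-fold of AA467197 on the left, and on the right it runs from 3.5-fold (Cxcr4) to 8.23-fold (Maf).

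Of the receptors and adaptors that carry the LPS signal, Cd14 and Tlr2 rose and most others did not pass the test. Cd14, the co-receptor that hands LPS to TLR4, read 1356, 1387 and 1080 in the controls and 8430, 4735 and 5125 with LPS. The groups did not overlap, and the log2 fold change was 2.22 ± 0.22 (SE, n = 3, adjusted p = 0.000757). Tlr2, the receptor for bacterial lipopeptides, rose by 2.04 ± 0.26 (SE, n = 3, adjusted p = 0.00245), and both were called in all 27 settings. Tlr4 itself gave 399, 653 and 605 in the controls and 347, 511 and 535 with LPS, overlapping groups with a log2 difference of -0.24 (adjusted p = 0.267). Ly96 gave 0.51 (adjusted p = 0.106), Myd88 0.10 (adjusted p = 0.648), Ticam1 0.10 (adjusted p = 0.693) and Irf3 -0.37 (adjusted p = 0.144). Tlr7, an endosomal receptor for single-stranded RNA, fell by 0.66 on the log2 scale (adjusted p = 0.0416), a call present in 13 of the 27 settings and lost without the block. In the receptor list 2 of 14 genes rose and 1 fell. Among 18 adaptors and kinases 3 rose and 0 fell: Ikbke, a kinase of IRF3 and IRF7, by 2.08 ± 0.24 (SE, n = 3, adjusted p = 0.00125), Irak3, a decoy kinase that restrains TLR signalling, by 1.89 ± 0.26 (SE, n = 3, adjusted p = 0.00281), and Map3k8 by 0.62 ± 0.14 (SE, n = 3, adjusted p = 0.028). Map3k8 kept its call in 16 of the 27 settings. Tlr7 lost its call without the block, Tlr7 and Map3k8 without control replicate 1, Map3k8 without control replicate 2, Tlr7 and Map3k8 without control replicate 3, Tlr7 and Map3k8 without LPS replicate 1, Tlr7 and Map3k8 without LPS replicate 2, and Tlr7 and Map3k8 without LPS replicate 3.

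Most feedback genes of the NFkB system rose. Of 16 genes of the IkB family and of NFkB feedback, 11 rose and 0 fell, with a median log2 fold change of 1.24 and within-replicate medians of 1.74, 0.97 and 1.0. Nfkbia, encoding the inhibitor IkB alpha, went from 1166, 2076 and 2046 to 8671, 9326 and 10022. Its LPS arrays lay close together and above every control, and the log2 fold change was 2.45 ± 0.25 (SE, n = 3, adjusted p = 0.000802). Tnfaip3, encoding the ubiquitin-editing inhibitor A20, rose by 3.01 ± 0.40 (SE, n = 3, adjusted p = 0.00251) and Traf1, an adaptor of TNF receptors, by 4.68 ± 0.36 (SE, n = 3, adjusted p = 0.000171). Traf1 controls were all under 50, so its rise was at least 13-fold, and the mean of its probe sets gave 3.29. Nfkbiz, Nfkbie, Bcl3, Birc3, Zc3h12a, Tnip1, Nfkbib and Tank rose by 2.68, 2.53, 2.28, 1.78, 1.33, 1.15, 1.09 and 0.81 on the log2 scale. Of the 4 subunits tested, Relb rose by 1.51 ± 0.24 (SE, n = 3, adjusted p = 0.00553) and Nfkb2 by 1.39 ± 0.12 (SE, n = 3, adjusted p = 0.000371). Rela, the subunit of the classical dimer, gave 1162, 1192 and 1254 in the controls and 1057, 1292 and 1288 with LPS and a log2 difference of 0.01 (adjusted p = 0.974), with no constant sign among replicates. Rel was high in LPS replicate 1 alone, at 468, 117 and 114 against 106, 107 and 107 in the controls (log2 difference 0.78, adjusted p = 0.234). The feedback count was 11 without the block, 10 or 11 with any 1 array left out, and 9, 9 and 6 without replicate 1, 2 or 3.

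Of 12 cytokine genes tested, 6 rose and 0 fell (median log2 fold change 1.75), and the same number rose without the block and without each replicate. Besides Il6 they were Il1rn, Il1b, Il1a, Ebi3 and Tnf. Il1b, the pyrogenic interleukin 1 beta, read 62.1, 67 and 86.2 in the controls and 1442, 1442 and 2494 with LPS, and in all 3 replicates the difference was close to the mean (log2 fold change 4.61 ± 0.40 SE, n = 3, adjusted p = 0.000363). Il1a rose by 3.90 ± 0.40 (SE, n = 3, adjusted p = 0.000802) from controls all under 50, at least 7.98-fold. Il1rn, whose product blocks the interleukin 1 receptor, rose from 88.7, 203 and 189.7 to 3111, 3859 and 5579 (log2 fold change 4.75 ± 0.30 SE, n = 3, adjusted p = 0.000102), so that agonists and antagonist of this receptor rose together. Tnf, encoding tumour necrosis factor, was at 151, 167 and 172 in the controls and 1718, 740.2 and 704 with LPS, where replicate 1 was the highest (log2 fold change 2.57 ± 0.30 SE, n = 3, adjusted p = 0.00144). Ebi3, a subunit of interleukins 27 and 35, rose by 3.83 ± 0.47 (SE, n = 3, adjusted p = 0.00191) with LPS replicate 1 as its lowest LPS array. Il10, Il12a, Il12b, Il23a, Csf2 and Ifnb1 were measured but stayed below the minimum, and 7 of the 8 genes left out were under 50 in all 6 arrays. Il6 and Il1a had control means of 20.9 and 26.8, so both passed the minimum only through arrays other than the controls. Count and median of the list therefore describe the genes that passed, and the median was 1.59 with signals under 50 set to 50.

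Most of the CC chemokines tested rose, and 2 of the CXC and CX3C family did. Of 12 CC chemokines tested, of 15 measured, 8 rose and 0 fell, with a median log2 fold change of 1.81, and of 9 CXC and CX3C chemokines, of 14 measured, 2 rose and 0 fell, with a median of 0.31. Ccl2, which draws monocytes, read 65.8, 459 and 715 in the controls and 3826, 6534 and 9946 with LPS. Its control replicate 1 was the lowest control, and the log2 fold change was 4.50 ± 0.66 (SE, n = 3, adjusted p = 0.00424). Ccl7 gave 48.2, 103 and 119 in the controls and 228, 1235 and 2426 with LPS, with LPS replicate 1 lowest (log2 fold change 3.39 ± 0.70 SE, n = 3, adjusted p = 0.0171), and Ccl12 gave 12.1, 31.8 and 35.6 in the controls and 1471, 157 and 153 with LPS, with LPS replicate 1 far above the others. The Ccl12 fold change was 3.78 ± 0.83 (SE, n = 3, adjusted p = 0.0226) and was 2.20 without replicate 1, and its call was lost without control replicate 1 (adjusted p = 0.0885) or control replicate 3 (adjusted p = 0.0677). Ccl9, Ccl4, Ccl3 and Ccl8 rose by 2.45, 1.94, 1.69 and 1.25. The Ccl12 and Ccl8 controls were all under 50, and the rises were at least 6.56-fold and 1.3-fold. Cxcl10, the interferon-inducible ligand of CXCR3, went from 25.2, 33.1 and 50.4 to 6158, 837 and 1741 (log2 fold change 5.90 ± 0.67 SE, n = 3, adjusted p = 0.00125), and the value was 4.89 without replicate 1. Cxcl2, a neutrophil attractant, rose from 17.6, 16.6 and 17.6 to 425, 406 and 334 with all controls under 50, at least 7.72-fold. Cxcl10 and Cxcl2 had control means of 34.7 and 17.2, so both passed the minimum only through arrays other than the controls. Cxcl16 and Cx3cl1 were not called, at 0.35 (adjusted p = 0.0732) and 0.32 (adjusted p = 0.166). The CC count was 6 without the block and without replicate 1, 4 without control replicate 3 and 3 without all of replicate 3. Ccl7 and Ccl8 lost their calls without the block, Ccl12 without control replicate 1, Ccl7 and Ccl12 without control replicate 3, Ccl7 without LPS replicate 2, and Ccl7 without LPS replicate 3.

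Single receptors for these signals were called in either direction. Ccrl2, a non-signalling chemerin receptor, rose by 3.96 ± 0.33 (SE, n = 3, adjusted p = 0.000299) and Gpr84, a receptor for medium-chain fatty acids, by 2.19 ± 0.42 (SE, n = 3, adjusted p = 0.0125). Tnfrsf1b, encoding the TNF receptor 2, went from 729, 729 and 692 to 3491, 2516 and 2676 (log2 fold change 2.00 ± 0.15 SE, n = 3, adjusted p = 0.000171). Gpr183, the receptor for oxysterols that guides immune cells, fell from 886, 774 and 804 to 240.5, 152 and 112. The controls lay close together, every LPS array was far below them, and the log2 fold change was -2.36 ± 0.25 (SE, n = 3, adjusted p = 0.000944), called in 27 of the 27 settings. Il6ra, encoding the interleukin 6 receptor subunit, fell from 302, 401 and 409.5 to 61.4, 101 and 80.0 (log2 fold change -2.21 ± 0.15 SE, n = 3, adjusted p = 0.00014, called in 27 of the 27 settings, and -1.48 with the mean of its probe sets) while Il6 rose. Cxcr4, the receptor for CXCL12, fell by 1.81 on the log2 scale (adjusted p = 0.00861), a call lost without the block, without control replicate 3 and without all of replicate 3. Ifngr2 rose by 1.01 and Ifngr1 fell by 0.46 on the log2 scale, which are the signalling and the binding chain of the interferon gamma receptor. Tgfbr2 fell by 0.64 (adjusted p = 0.0114) and gave an adjusted p of 0.285 with the mean of its probe sets. Over the 16 chemoattractant and purinergic receptors 2 rose (12.5%) and 3 fell (18.8%), and over the 26 cytokine and growth factor receptors 3 rose and 3 fell (11.5% each), beside 4.3% and 6.78% of all genes. Cxcr4, Ifngr2, Ifngr1 and Tgfbr2 lost their calls without the block, Gpr84 without control replicate 1, Gpr84, Cxcr4 and Tgfbr2 without control replicate 3, Ifngr2 without LPS replicate 1, Ifngr2 without LPS replicate 2, and Tgfbr2 without LPS replicate 3.

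Of the 49 lists, the antiviral interferon-stimulated genes held the most rises, and also the most genes tested. By share of the genes tested, the guanylate-binding proteins and immunity-related GTPases (7 of 7) and the acute phase and iron-binding proteins (6 of 7) were higher. Some genes of all these lists passed the minimum only through arrays other than the controls, so this order describes the genes that passed. Of the genes measured, 7 of 9 and 6 of 15 rose, beside 31 of 41 in the antiviral list. Of 41 antiviral interferon-stimulated genes 31 rose (75.6%, beside 4.3% of all genes) and 0 fell, the median log2 fold change was 2.19, and 2.17 with signals under 50 set to 50. In 38 of the 41 all LPS arrays lay above all controls, as in 11.5% of all genes. Rsad2, encoding viperin, which blocks viral replication, read 103, 94.8 and 130.1 in the controls and 12194, 7844 and 12956 with LPS (log2 fold change 6.63 ± 1.09 SE, n = 3, adjusted p = 0.00697). Ifit1, whose product binds viral RNA, read 14.8, 17.8 and 34.9 in the controls and 2393, 764 and 1639 with LPS and Cmpk2, a mitochondrial nucleotide kinase next to Rsad2, 22.1, 20.3 and 29.6 in the controls and 1630, 802 and 2296 with LPS. Both sets of controls were under 50, so the rises were at least 28.8-fold and 28.9-fold, and replicate 2 was the lowest LPS array for all 3 genes. Ifitm3, which stops viral entry, rose by 5.71 ± 0.60 (SE, n = 3, adjusted p = 0.000874), with LPS signals of 5903, 2258 and 1444. Oasl2 rose by 5.41 ± 1.21 (SE, n = 3, adjusted p = 0.0239), called in 20 of the 27 settings and lost without control replicate 1 (adjusted p = 0.0962), control replicate 3 (0.0856) or any LPS array (0.0564 to 0.0755). Ifit3, Xaf1, Isg20 and Mx1 rose by 4.15, 4.91, 3.52 and 2.99, and from Mx1 controls all under 50 the rise was at least 1.85-fold. Isg20, an exonuclease, was far higher in LPS replicate 1 than in the others, at 3568, 460.3 and 581 against 65.1, 109.7 and 88.3 in the controls, with a log2 fold change of 2.39 without replicate 1. The within-replicate medians of the list were 2.74, 1.81 and 2.13. The count of rises was 17 without the block, 22 without replicate 1, 31 without replicate 2 and 1 without replicate 3, and with 1 array left out it ran from 12 (control replicate 1 or 3) to 38. Ifit3 lost its call without the block, Oasl2 and Isg20 without control replicate 1, Oasl2 and Isg20 without control replicate 3, Oasl2 and Isg20 without LPS replicate 1, Oasl2 without LPS replicate 2, and Oasl2 without LPS replicate 3.

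Of 22 interferon signalling, IRF and STAT genes 6 rose and 1 fell, with a median of 0.39. Irf7, the factor that amplifies the interferon response, rose from 119.7, 135 and 78.5 to 5054, 2036 and 1649 (log2 fold change 4.57 ± 0.85 SE, n = 3, adjusted p = 0.0117), a call lost without control replicate 1 (adjusted p = 0.0521) or control replicate 3 (0.0629). Irf9, Irf1, Batf, Batf2 and Stat3 rose by 1.94, 1.18, 1.98, 0.69 and 0.57. Irf2, a repressor of interferon genes, fell by 0.68 on the log2 scale (adjusted p = 0.0138) and was not called without the block. Without control replicate 3 the list had 0 rises, so Irf1, Batf2 and Stat3 lost their calls there too. Of 9 guanylate-binding proteins and immunity-related GTPases measured, Gbp8 and Iigp1 were below the minimum and the other 7 rose. Their median was 4.11, and 2.85 with signals under 50 set to 50. Gbp2, Gbp3, Gbp6 and Gbp7 had control means of 23.2, 45.2, 20.8 and 37.1. These genes passed the minimum only through arrays other than the controls, so count and median describe the genes that passed. They included Gbp7 by 4.73 ± 0.84 (SE, n = 3, adjusted p = 0.00968) and Gbp6 by 4.11 ± 0.34 (SE, n = 3, adjusted p = 0.000271), the latter at least 7.21-fold. The count was 5 without the block, 6 without replicate 1 and 1 without replicate 3. Of 17 genes of MHC class I and the immunoproteasome 9 rose and 0 fell, with a median of 0.50. Tap1, the peptide transporter, rose by 1.35 ± 0.24 (SE, n = 3, adjusted p = 0.00941) and Tapbp, tapasin, by 1.28 ± 0.14 (SE, n = 3, adjusted p = 0.00109), while H2-K1 and H2-D1 rose by 0.50 and 0.41. The count was 1 without the block, 1 without control replicate 3 and 0 without all of replicate 3. Of the 17 differences 16 were above 0, beside 45.1% over all genes. Among 12 genes of MHC class II and costimulation (17 measured) 4 rose, with 2 without the block and 1 without replicate 3, Slamf7 by 3.42 ± 0.36 (SE, n = 3, adjusted p = 0.000895), Cd40 by 2.35 ± 0.43 (SE, n = 3, adjusted p = 0.0114), Icosl by 1.55 ± 0.33 (SE, n = 3, adjusted p = 0.0197) and Cd274, the ligand of PD-1, by 1.48 ± 0.21 (SE, n = 3, adjusted p = 0.00372). The class II genes H2-Aa and H2-Ab1 and their activator Ciita stayed below the minimum, and Cd86 and Cd80 were not called (0.58 with adjusted p = 0.0556, and 0.81 with adjusted p = 0.0785). Irf1, Stat3, Irf2, Tap1, H2-K1, H2-D1, Icosl and Cd274 lost their calls without the block, Irf7, Irf9, Irf2 and Icosl without control replicate 1, Irf7, Irf9, Batf, Irf2, Tap1, Cd40 and Icosl without control replicate 3, Icosl without LPS replicate 1, and Irf2 and Icosl without LPS replicate 3. Cd274 had overlapping groups.

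**Figure D3:**
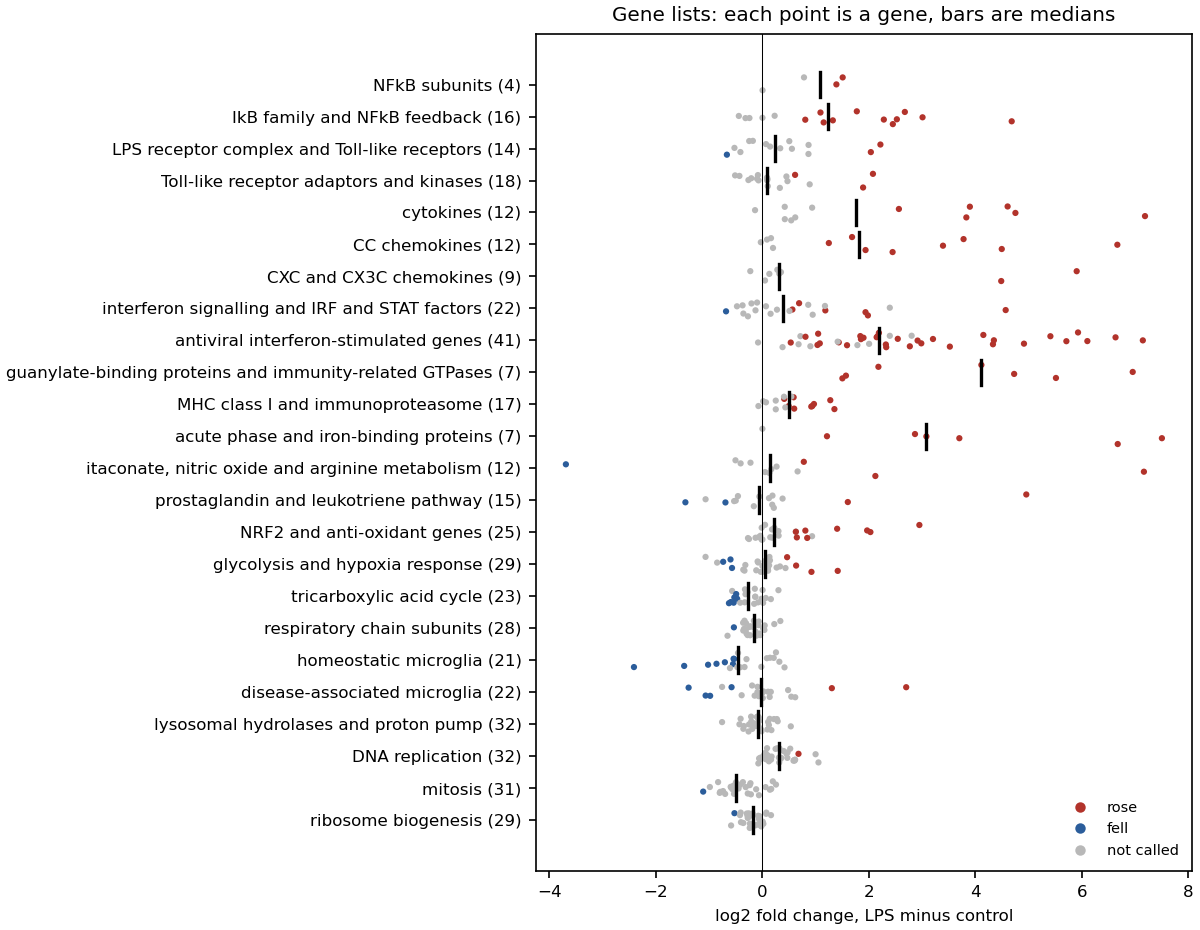
Each point is a gene tested, placed by its log2 fold change of LPS minus control within 24 of the gene lists (number of genes in brackets), in red where it rose, blue where it fell and grey where it was not called, with bars at list medians. The medians of the guanylate-binding proteins (4.11), acute phase proteins (3.08) and antiviral genes (2.19) lie farthest to the right, and that of mitosis (-0.49) farthest to the left.

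Of 15 acute phase and iron-binding proteins measured, 8 were below the minimum, and of the 7 tested 6 rose. The median of these 7 was 3.08, also with signals under 50 set to 50. The rises were, after Lcn2 and Saa3, Hp (haptoglobin) by 3.70 ± 0.46 (SE, n = 3, adjusted p = 0.00206), Slpi, a protease inhibitor, by 3.08 ± 0.33 (SE, n = 3, adjusted p = 0.000944), Cp (ceruloplasmin) by 2.87 ± 0.55 (SE, n = 3, adjusted p = 0.0129) and Orm1 by 1.22 ± 0.33 (SE, n = 3, adjusted p = 0.0437), the last at least 1.1-fold from controls all under 50. Cfb, which starts the alternative route of complement activation, was the only one of 9 complement genes tested (13 measured) that was called, at 39.6, 34.4 and 37.9 in the controls and 824, 280.0 and 275 with LPS, a rise of at least 7.98-fold. In the list of itaconate, nitric oxide and arginine metabolism 3 of 12 genes rose and 1 fell, and in that of prostaglandins and leukotrienes 2 of 15 rose and 2 fell, with a median of -0.05. Nos2, the inducible nitric oxide synthase, read 48, 46.2 and 59.7 in the controls and 335, 201 and 163 with LPS, with non-overlapping groups and a log2 fold change of 2.12 ± 0.30 (SE, n = 3, adjusted p = 0.00346). Gch1, which makes its cofactor tetrahydrobiopterin, rose by 0.78 ± 0.19 (SE, n = 3, adjusted p = 0.0331) with overlapping groups and was not called without the block. Ptgs2, cyclooxygenase 2, rose from 37.4, 159 and 145 to 3815, 2338 and 2904 (log2 fold change 4.96 ± 0.52 SE, n = 3, adjusted p = 0.000874), and Ptges, the downstream prostaglandin E synthase, by 1.61 ± 0.16 (SE, n = 3, adjusted p = 0.000802). Ltc4s and Alox5ap, which make leukotrienes, fell by 1.44 and 0.69 on the log2 scale, and Alox5ap lost its call without the block. Orm1, Gch1 and Alox5ap lost their calls without the block, Gch1 without control replicate 1, Alox5ap without control replicate 2, Gch1 and Alox5ap without control replicate 3, Gch1 without LPS replicate 1, Gch1 and Alox5ap without LPS replicate 2, and Gch1 and Alox5ap without LPS replicate 3. Gch1 had overlapping groups.

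Arg1, encoding arginase 1, which competes with Nos2 for arginine, had the largest fitted fall, with unequal differences between replicates. Its controls read 16.4, 1502 and 665 and its LPS arrays 14.8, 28.2 and 18.4. Control replicate 1 was as low as the LPS arrays, so the groups overlapped. All LPS arrays and control replicate 1 lay under 50, and with such signals set to 50 the mean fall was 7.37-fold. The within-replicate log2 differences were -0.15, -5.74 and -5.17. The log2 fold change of -3.69 ± 0.99 (SE, n = 3, adjusted p = 0.0436) was called in 12 of the 27 settings only. It was not called without the block, with only the 6 arrays, without control replicates 2 or 3 (adjusted p = 0.137 and 0.16) or LPS replicates 2 or 3 (0.123 and 0.141), and it was -5.46 and called without replicate 1. Among 13 markers of alternative activation (20 measured), Arg1, Mrc1, Clec10a and Trem2 fell and Tgm2 rose. Mrc1, the mannose receptor, fell by 1.09 and Clec10a, a galactose-type lectin, by 0.87 on the log2 scale. Tgm2, a transglutaminase, rose by 2.60 ± 0.36 (SE, n = 3, adjusted p = 0.00301). Chil3, Retnla, Il10 and Pparg of the list were below the minimum. Without the block 0 of the 4 falls were called, and without replicate 1 there were 2. Arg1, Mrc1, Clec10a and Trem2 lost their calls without the block, Mrc1 and Clec10a without control replicate 1, Arg1 and Mrc1 without control replicate 2, Arg1, Clec10a and Trem2 without control replicate 3, Mrc1 without LPS replicate 1, Arg1 without LPS replicate 2, and Arg1, Mrc1 and Clec10a without LPS replicate 3. Arg1 and Mrc1 had overlapping groups.

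Of 17 genes of the TNF and TNF receptor superfamily 5 rose and 0 fell, and of 16 GADD45 and p53 targets 5 rose and 1 fell. Without control replicate 3 only 1 of the GADD45 and p53 targets rose, which was Plk2. Casp4, the caspase that senses LPS in the cytosol, rose from 341, 239 and 231 to 2483, 1434 and 1795, with a like difference in each replicate (log2 fold change 2.80 ± 0.18 SE, n = 3, adjusted p = 0.000102). Casp1, the caspase of the inflammasome, rose by 1.04 ± 0.20 (SE, n = 3, adjusted p = 0.0125), and the 8 other genes of the inflammasome list were not called. Fas rose by 2.81 ± 0.23 (SE, n = 3, adjusted p = 0.000259), at least 4.62-fold from controls of 27.9, 33.5 and 38.3, and Cflar, an inhibitor of caspase 8, by 1.35 ± 0.22 (SE, n = 3, adjusted p = 0.00697). Bmf, a pro-apoptotic BH3-only gene, fell by 1.33 and Casp9 by 0.75 on the log2 scale, while Bik rose by 0.70, so that of 26 apoptosis regulators 2 rose (7.69%) and 3 fell (11.5%), beside 4.3% and 6.78% of all genes, around a median of 0.01. Gadd45g, Plk2, Gadd45b, Btg1 and Mdm2 rose by 2.23, 1.35, 1.23, 0.78 and 0.73, and Sesn1, a sestrin, fell from 2342, 877 and 1323 to 389.8, 378 and 329 (log2 fold change -1.94 ± 0.24 SE, n = 3, adjusted p = 0.00197). Myc rose from 95.2, 52.2 and 92.1 to 781, 307 and 484 (log2 fold change 2.66 ± 0.26 SE, n = 3, adjusted p = 0.000724), and of 22 immediate early genes 6 rose, Ier3 by 2.10 and Junb by 1.52 among them, while Egr2 fell by 1.14 on the log2 scale. Of 30 genes of the integrated stress and unfolded protein response 2 rose (6.67%) and 1 fell (3.33%), beside 4.3% and 6.78% of all genes, Nupr1 by 1.40, Ppp1r15a by 1.03 and Eif2ak3 by -0.45. These calls of Casp9, Bik, Gadd45b, Egr2, Ppp1r15a and Eif2ak3 stood in 10 to 15 of 27 settings. Casp1, Cflar, Bik, Gadd45g, Gadd45b, Egr2, Nupr1, Ppp1r15a and Eif2ak3 lost their calls without the block, Casp9, Bik, Gadd45b, Junb, Egr2, Nupr1, Ppp1r15a and Eif2ak3 without control replicate 1, Bmf, Casp9, Bik, Gadd45b, Egr2 and Eif2ak3 without control replicate 2, Bmf, Casp9, Bik, Gadd45g, Gadd45b, Junb, Egr2, Nupr1, Ppp1r15a and Eif2ak3 without control replicate 3, Casp9, Gadd45b, Junb, Egr2, Ppp1r15a and Eif2ak3 without LPS replicate 1, Bik, Gadd45b, Junb, Nupr1 and Ppp1r15a without LPS replicate 2, and Casp9, Bik, Gadd45b, Egr2, Nupr1, Ppp1r15a and Eif2ak3 without LPS replicate 3.

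Anti-oxidant genes rose in part. Of 25 NRF2 targets and anti-oxidant genes 8 rose and 0 fell, with a median of 0.23. Sod2, the mitochondrial superoxide dismutase and an NFkB target, read 2492, 2582 and 2338 in the controls and 10548, 9555 and 10175 with LPS, with a spread between arrays far smaller than the difference (log2 fold change 2.03 ± 0.15 SE, n = 3, adjusted p = 0.000171). Hmox1, heme oxygenase 1, rose by 1.97 ± 0.29 (SE, n = 3, adjusted p = 0.00415) from 567, 2305 and 2005 to 4629, 6455 and 5261, Slc7a11, the cystine importer, by 2.95 ± 0.44 (SE, n = 3, adjusted p = 0.00442) and Srxn1 by 1.41 ± 0.27 (SE, n = 3, adjusted p = 0.0131). For Slc7a11 and Srxn1 LPS replicate 1 was well above the others, and without replicate 1 their values were 2.50 and 0.86. Nqo1 and Gclm, further NRF2 targets, were not called (0.30 with adjusted p = 0.328, and 0.94 with adjusted p = 0.0594). The count was 4 without the block, 5 without replicate 1 and 1 without replicate 3. Of 16 genes of iron transport, ferritin and metallothioneins 3 rose (18.8%) and 1 fell (6.25%), beside 4.3% and 6.78% of all genes. The importer Slc11a2 rose from 592, 428 and 439.6 to 2395, 1722 and 1841 in every replicate alike (log2 fold change 2.03 ± 0.13 SE, n = 3, adjusted p = 0.000117). The other rises were Hmox1 and the phagosomal transporter Slc11a1, the latter by 0.64, and Ncoa4 fell by 0.64 on the log2 scale (adjusted p = 0.0179). Srxn1, Slc11a1 and Ncoa4 lost their calls without the block, Ncoa4 without control replicate 1, Slc11a1 and Ncoa4 without control replicate 3, and Ncoa4 without LPS replicate 3.

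Part of the genes of resting microglia fell. Of 21 homeostatic microglial genes 8 fell and 0 rose, the median was -0.45, and the within-replicate medians were -0.48, -0.24 and -0.36. Gpr34, a lysophosphatidylserine receptor of microglia, fell by 2.41 on the log2 scale (adjusted p = 0.00806), from 24.2, 73.6 and 121 to 8.5, 13.1 and 12.9. All its LPS arrays and control replicate 1 lay under 50. With such signals set to 50 the fall was 1.53-fold, and Gpr34 was not called without the block. Mertk, a receptor for apoptotic cells, read 574, 321 and 378 in the controls and 203, 130.0 and 125 with LPS (log2 fold change -1.47 ± 0.20 SE, n = 3, adjusted p = 0.00272). Mef2c, Trem2, P2ry13, Cst3, Golm1 and Tyrobp fell by 1.02, 0.86, 0.70, 0.55, 0.54 and 0.53. Csf1r, the receptor for the survival factor CSF1, was not called at 0.09 (adjusted p = 0.77). P2ry12 and Cx3cr1, defining markers that were low in this line, were tested and not called either. Of the 21 differences 15 were below 0 and 6 above, beside 45.1% above 0 over all genes. The count of falls was 1 without the block, 2 without control replicate 3, 6 without replicate 1, 1 without replicate 2 and 0 without replicate 3. Of 22 genes of the disease-associated state 4 fell, Itgax by 1.38, Apoe by 1.06, Ank by 0.98 and Cd9 by 0.58 on the log2 scale, and 2 rose, Acp5 by 2.70 ± 0.21 (SE, n = 3, adjusted p = 0.000171) and Axl by 1.31 ± 0.32 (SE, n = 3, adjusted p = 0.0327). The Axl controls read 21.6, 29.7 and 27.4, all under 50, so its rise was at least 1.29-fold, and the call was lost with the mean of its probe sets (adjusted p = 0.0624). Apoe read 6155, 9477 and 8566 in the controls and 3070, 4951 and 3608 with LPS, with differences of -1.0, -0.94 and -1.25 in the 3 replicates. Gpr34, Mertk, Mef2c, Trem2, P2ry13, Golm1, Tyrobp, Itgax and Cd9 lost their calls without the block, Mef2c and Axl without control replicate 1, Gpr34, Mef2c, Trem2, Tyrobp and Axl without control replicate 3, Axl without LPS replicate 1, Mef2c and Axl without LPS replicate 2, and Mef2c, Tyrobp and Axl without LPS replicate 3. P2ry13 had overlapping groups.

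The other leading falls were of a transcription factor and of surface proteins. Maf, a factor of macrophage differentiation, fell from 434, 953 and 952 to 31.8, 197 and 113, the largest fall among genes whose groups did not overlap (log2 fold change -3.04 ± 0.31 SE, n = 3, adjusted p = 0.000824). It was called in 25 of the 27 settings, with an adjusted p of 0.0534 without the block, and the mean of its probe sets gave -1.78. Cd93, a receptor in phagocytosis, read 557, 745 and 361 in the controls and 29, 261 and 109 with LPS. LPS replicate 1 was the lowest array, the log2 fold change was -2.50 ± 0.53 (SE, n = 3, adjusted p = 0.019), and it was -1.62 and not called without replicate 1 (adjusted p = 0.0894), and -1.15 with the mean of its probe sets. Ocstamp, a gene of osteoclast fusion, went from 134, 346 and 327 to 29.6, 62.3 and 64.8 (log2 fold change -2.33 ± 0.16 SE, n = 3, adjusted p = 0.00014), Klhl30 from 1127, 922 and 1289 to 282, 219 and 243 (log2 fold change -2.16 ± 0.29 SE, n = 3, adjusted p = 0.00272), and Cytip, a regulator of integrins, from 2268, 4510 and 4642 to 635, 1364 and 1188 (log2 fold change -1.84 ± 0.12 SE, n = 3, adjusted p = 0.000102). In these 3 genes every LPS array was below every control in each replicate by a like amount. Asb10, Myzap, Ipcef1, Thbd and Tmem51 fell by 2.06, 1.99, 1.96, 1.89 and 1.88 on the log2 scale, and Thbd, thrombomodulin, was -1.15 without replicate 1. Maf, Cd93, Cytip, Ipcef1 and Thbd lost their calls without the block, Cd93 and Thbd without control replicate 1, Cd93 and Thbd without control replicate 2, Thbd without control replicate 3, and Cd93 without LPS replicate 3.

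Phagocytic receptors were divided. Marco, a scavenger receptor for bacteria, rose from 45.7, 90.2 and 64.7 to 1732, 825 and 892 (log2 fold change 4.07 ± 0.54 SE, n = 3, adjusted p = 0.00268), Clec4e, the receptor Mincle, from 602, 1373 and 1212 to 12293, 11922 and 11419 (log2 fold change 3.57 ± 0.34 SE, n = 3, adjusted p = 0.000638) and its neighbour Clec4d by 1.79 ± 0.11 (SE, n = 3, adjusted p = 0.000102). Msr1 and Clec4n rose by 1.01 and 0.86, and Mertk, Itgax, Mrc1 and Cd5l fell, so that of 26 scavenger and phagocytic receptors 6 rose and 4 fell. Icam1, the ligand of leukocyte integrins, rose by 1.86 ± 0.35 (SE, n = 3, adjusted p = 0.0125) and Cd47, a signal against phagocytosis, by 0.96 ± 0.22 (SE, n = 3, adjusted p = 0.0247), while Serpinb1a fell by 1.18 and Mmp8 by 1.11 on the log2 scale. Marcksl1, an actin-binding protein, rose by 2.27 ± 0.35 (SE, n = 3, adjusted p = 0.00552). Of 31 filopodia and actin regulators 3 rose, Marcksl1 with Rac2 and Rhoc by 0.93 and 0.73, and 1 fell, Was by 0.40 on the log2 scale. These are 9.68% and 3.23% of the list, beside 4.3% and 6.78% of all genes, and 0 rose without replicate 3. Clec4n, Mertk, Itgax, Mrc1, Serpinb1a, Mmp8 and Was lost their calls without the block, Mrc1, Icam1, Cd47, Serpinb1a, Mmp8 and Was without control replicate 1, Mrc1, Serpinb1a and Was without control replicate 2, Icam1, Cd47, Serpinb1a, Mmp8, Rhoc and Was without control replicate 3, Mrc1 and Cd47 without LPS replicate 1, Cd47, Serpinb1a and Was without LPS replicate 2, and Mrc1, Cd47, Serpinb1a, Mmp8 and Was without LPS replicate 3. Mrc1 had overlapping groups.

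Of 29 genes of glycolysis and the hypoxia response 4 rose (13.8%) and 3 fell (10.3%), beside 4.3% and 6.78% of all genes, with a median of 0.05, and none of the 7 was called without the block. The glucose transporters Slc2a6 and Slc2a1 rose by 1.42 ± 0.33 (SE, n = 3, adjusted p = 0.0272) and 0.92 ± 0.19 (SE, n = 3, adjusted p = 0.0183) and Hif1a by 0.47 ± 0.11 (SE, n = 3, adjusted p = 0.025), while Pfkm, a phosphofructokinase, fell by 0.73 and Pkm and Ldha gave 0.05 (adjusted p = 0.841) and 0.11 (adjusted p = 0.555). Of 23 genes of the tricarboxylic acid cycle list 6 fell and 0 rose, with a median of -0.28 and within-replicate medians of -0.29, -0.20 and -0.26. They were Idh1, Mdh1, Idh2, Pdha1, Suclg2 and Idh3g, with falls of 0.62, 0.59, 0.54, 0.52, 0.49 and 0.47 on the log2 scale, and Idh1 and Mdh1 encode the cytosolic forms. The count was 3 without the block and 1 without replicate 1. It was 0 without control replicate 3 or LPS replicate 3, so Suclg2 and Idh3g also lost their calls there. Of 28 respiratory chain subunits 1 fell (Ndufs1), of 21 cholesterol synthesis genes 1 fell (Hmgcs1, by 0.77, adjusted p = 0.00585), and of 32 lysosomal genes 0 were called. Fasn, the fatty acid synthase, fell by 0.75 on the log2 scale and Me1, which supplies it with NADPH, rose by 0.69. Slc2a6, Slc2a1, Hif1a, Pfkm, Mdh1, Idh2, Suclg2, Ndufs1, Fasn and Me1 lost their calls without the block, Slc2a6, Slc2a1, Idh1, Mdh1, Idh2 and Ndufs1 without control replicate 1, Idh1 and Mdh1 without control replicate 2, Slc2a6, Idh1, Mdh1, Idh2, Pdha1, Ndufs1, Fasn and Me1 without control replicate 3, Slc2a6, Idh1, Mdh1 and Idh2 without LPS replicate 1, Slc2a6, Mdh1 and Idh2 without LPS replicate 2, and Idh1, Mdh1, Idh2, Pdha1 and Ndufs1 without LPS replicate 3. Slc2a1 and Pfkm had overlapping groups.

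The differences of cell cycle genes varied between the replicates. Of 31 mitotic genes 1 fell, Cenpa, and 0 rose, with a median of -0.49. In replicate 1 all 31 were lower with LPS, with a median of -1.62, while in replicates 2 and 3 only 6 and 12 were lower, with medians of 0.19 and 0.14. Against the mean of the controls, the list's median was 0.71, -0.48 and -0.20 in control replicates 1, 2 and 3 and -0.83, -0.28 and -0.15 in the LPS arrays, so the control array of replicate 1 was the highest and its LPS array the lowest of the 6. Mki67, a marker of dividing cells, read 4708, 1518 and 2247 in the controls and 1219, 2010 and 2178 with LPS (log2 difference -0.53, adjusted p = 0.389), with the order of the groups turned in replicate 2. Cenpa, a centromeric histone, fell by 1.11 on the log2 scale and was not called without replicate 1 (adjusted p = 0.0688). Of 32 DNA replication genes 1 rose, Chaf1b by 0.68, and the within-replicate medians were -0.38, 0.64 and 0.58. Without replicate 1, 6 replication genes rose and the median was 0.60. Of the 994 genes below -1 in replicate 1, 27 were mitotic genes, and the part of the cell cycle in that replicate's differences was not tested. Chaf1b lost its call without the block, Chaf1b without control replicate 2, Cenpa and Chaf1b without control replicate 3, Cenpa and Chaf1b without LPS replicate 1, Chaf1b without LPS replicate 2, and Chaf1b without LPS replicate 3.

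**Figure D4:**
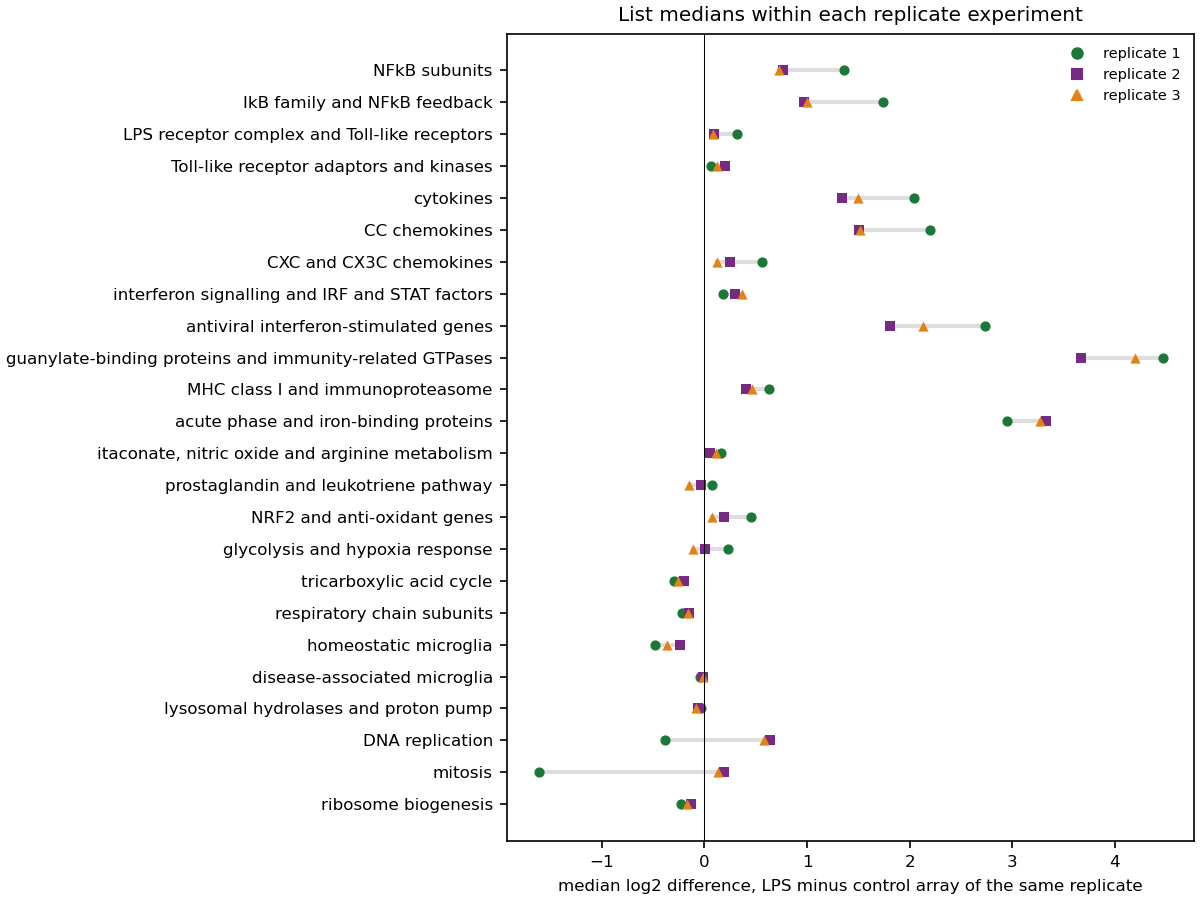
Median log2 difference between the LPS and the control array of the same replicate for 24 gene lists, with a symbol for each of replicates 1, 2 and 3. All 3 symbols lie above 0 for the cytokine, CC chemokine, antiviral and acute phase lists, and they lie on both sides of 0 for mitosis (-1.62, 0.19 and 0.14) and DNA replication (-0.38, 0.64 and 0.58).

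Many markers of other brain cells lay under 50. Of 12 neuronal markers 9 were under 50 in all 6 arrays, and 4 of 10 astrocyte, 5 of 10 oligodendrocyte and 9 of 12 fibroblast and endothelial markers were so too. The summed signal of the neuronal markers was 463 to 528 in the controls and 497 to 515 with LPS, that of the astrocyte markers 3304 to 3712 and 2245 to 3766, and that of the oligodendrocyte markers 1590 to 2664 and 1692 to 1842. Of the 15 such markers tested, only Kdr, a receptor of endothelial cells, was called, and it fell by 0.90 on the log2 scale. Of the identity markers Adgre1, encoding F4/80, rose by 1.29 ± 0.27 (SE, n = 3, adjusted p = 0.0174), and Cebpa, Laptm5, Tyrobp and Lcp1 fell by 1.10, 0.68, 0.53 and 0.44 on the log2 scale. Kdr, Tyrobp and Lcp1 lost their calls without the block, Kdr, Adgre1 and Cebpa without control replicate 1, Kdr, Adgre1, Cebpa and Tyrobp without control replicate 3, Adgre1 without LPS replicate 1, Adgre1 without LPS replicate 2, and Cebpa and Tyrobp without LPS replicate 3. Kdr had overlapping groups.

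Promoter motifs were counted in the windows of the 9788 tested genes that matched a RefSeq promoter. The letters of the motifs were settled after values of this comparison had been seen, and the shares are a description without a test. The NFkB motif occurred in 11.5% of the promoters of genes that rose, in 17.4% of those of genes that rose by more than 2 on the log2 scale, in 5.86% of those of genes that fell and in 5.36% of those not called, beside 4.94% of all promoters. The palindromic form GGAANTTCC gave 4.88%, 11.6%, 1.35% and 1.08%, beside 1.07% of all. One stretch can match both forms. For the ISRE the shares were 19.3%, 27.9%, 8.11% and 7.78%, beside 9.76% of all, and for AP-1 they were 11%, 31.4%, 7.51% and 5.88%, beside 8.97%. The interferon gamma-activated site GAS (TTCNNNGAA) gave 12.7%, 10.5%, 7.66% and 8.09%, beside 9.55%, and the cyclic AMP response element CRE (TGACGTCA) 3.17%, 0%, 2.7% and 3.54%, beside 2.03%. These shares rest on 410 genes that rose, 86 that rose by more than 2, 666 that fell and 8712 not called. Of the 30 antiviral genes with a window, 15 held the ISRE and 0 the NFkB motif, while of the 15 NFkB feedback genes 3 held the ISRE and 7 the NFkB motif.

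**Figure D5:**
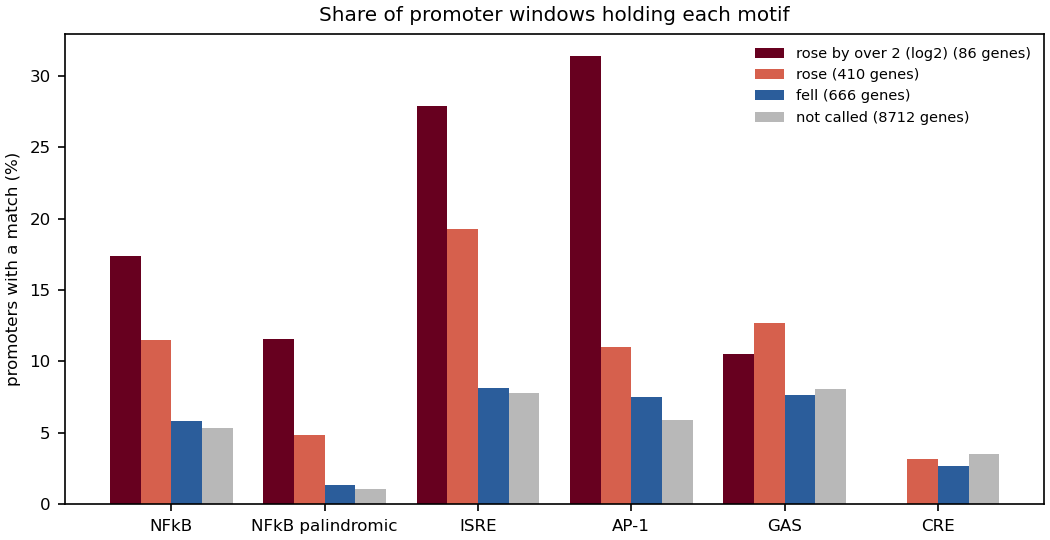
Share of promoter windows (%, y axis from 0) that hold each of 6 motifs on either strand, for genes that rose by more than 2 on the log2 scale (86), rose (410), fell (666) or were not called (8712). The ISRE (27.9%) and AP-1 (31.4%) bars are the highest among the genes that rose by more than 2, and the CRE bar there is at 0.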

How the data were processed

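RNA from 12 BV-2 cultures (3 each of control, luteolin, LPS and luteolin + LPS) was hybridised to Affymetrix Mouse Genome 430 2.0 arrays. The authors deposited RMA intensity values on a linear scale, background-corrected, quantile-normalised and summarised per probe set, so that a shift shared by most genes cannot be seen. The log2 of each deposited intensity was taken here. Of 45101 probe sets, 34958 had 1 gene symbol in the platform annotation, 932 had several and 9211 had none. Each of 18194 genes was represented by its brightest probe set on average over the arrays. Testing was limited to 12071 genes whose mean signal reached 50 in any of the 4 conditions, and 6123 were below this minimum. Probe sets of Gbp2, Bik, Tgm2, Nupr1, Laptm5, Irf3 and Elovl1 may also bind related transcripts.

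The 12 arrays were fitted with limma (version 3.58.1, R 4.3.3) with 4 group means and the replicate number as a fixed block, and p-values of LPS minus control were adjusted by Benjamini-Hochberg over all genes with a threshold of 0.05. The block was part of the definition of this comparison, and the labels carry the same numbers in each condition. The study describes independent stimulation experiments but does not tie the numbers to them. Arrays with the same number deviated together from their group means, with 18 correlations of 0.101 to 0.591 (median 0.42). Those of different numbers had a median of -0.30 and a highest value of 0.483. Deviations within a group cancel, so positive same-number values make the others negative on average. The fit was tested on simulated data. The number of arrays limits the precision.

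Named genes were the 15 largest called changes per direction without overlap between groups, up to 4 called members of each of 49 gene lists (849 genes tested) by size, a set of signalling and response genes whatever their values, the genes whose promoters are shown and up to 5 called genes with the largest spread between replicates. Other list members named were chosen after their values were seen. The members and lists were chosen with earlier results of these data known. Alternatives changed the block, the arrays, the filter, the choice of probe set, the centring, the offset, the variance prior and a floor under low signals, and left out arrays. Figures were drawn with matplotlib 3.10.9. Promoter and microRNA sequences were from RefSeq (GRCm38.p6).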

Additional observations from a re-analysis of the deposited data

How the results depend on the processing

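The counts of calls, the named genes and the list medians were recomputed under 27 settings (26 for genes that the minimum of 100 left out), and the motif shares and the interaction were not. Of the settings, leaving out all 4 arrays of a replicate was chosen after seeing the data. Against 1338 calls (519 rises and 819 falls), the fit without the replicate block gave 505 (237 and 268), the 6 arrays with the block 492 (297 and 195) and the 6 arrays without it 306 (216 and 90). Array weights gave 3503 (1504 and 1999). Centring each array on its median gave 1519 (509 and 1010), with rises 33.5% of calls in place of 38.8%. The remaining settings with all arrays gave 1259 to 1446 calls. With arrays left out, there were 110 to 1676 calls, 90 to 678 rises and 20 to 998 falls, lowest without replicate 3 and highest without luteolin + LPS replicate 2. Fits with fewer arrays have fewer samples by construction, and the cause of the other differences was not tested.

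Of 161 named genes 155 were called, 46 of them in every setting. Among 4345 values of a gene under a setting, 745 lost the call with the direction kept and 7 changed sign, all in genes not called. Rela, at 0.01, became -0.009 with median centring, -0.0033 without control replicate 3, -0.0065 without LPS replicate 3, -0.049 without replicate 2 and -0.01 without replicate 3, and with arrays left out it ran from -0.0695 (without LPS replicate 2) to 0.0938 (without LPS replicate 1). Ticam1 ran from -0.0524 (without LPS replicate 1) to 0.299 (without LPS replicate 3). Within single replicates the sign also turned for Rela (-0.14) and Myd88 (-0.10) in replicate 1 and for Ticam1 (-0.22) in replicate 3. Low signals, with 46 rises from controls all under 50, leave only a lower bound on the fold.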

Other observations

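The difference between the LPS effect with and without luteolin was tested as an interaction over all 12 arrays with limma. At an adjusted p under 0.05, 0 genes passed, and 798 had an unadjusted p under 0.05.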
